A study of Mus musculus with 16 samples.

Results

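The Polycomb complex genes examined here are 10 named genes: Ezh1, Ezh2, Eed, Suz12 and Jarid2 of Polycomb repressive complex 2 (PRC2), and Bmi1, Rnf2, Ring1, Cbx2 and Phc1 of Polycomb repressive complex 1 (PRC1). They were taken by name from the 27128 genes of the deposited tables; the rule uses no measured value, though the list was drawn up with earlier results of these data known. All 10 were present, and all 10 were among the 14301 genes whose mean reached 1 CPM (counts scaled to library size). The data are RNA sequencing, in 12 libraries, of mouse germline stem cells (GSCs), which are spermatogonial stem cells kept in culture. Every library came from mice listed as B6;CBA-Tg(Pou5f1-EGFP)2Mnn/J, whose transgene places EGFP under Pou5f1 (Oct4) regulatory sequence, and from germ cells of postnatal day 5.5 that were sorted as Oct4-positive and KIT-negative and then cultured with GDNF, bFGF and EGF. The feeder-removal series had cells on mouse embryonic fibroblast (MEF) feeders at day 0, and cells 4 and 9 days after a move to Matrigel, a basement membrane extract. The density experiment set Matrigel coated at 0.1 µg/cm2, labelled epithelial-like, beside Matrigel at 10 µg/cm2, labelled mesenchymal-like. The GFP sort had low, mid and high Oct4-GFP fractions of cells grown on Matrigel at 10 µg/cm2. In the inhibitor series, cells on MEF feeders were treated over 48 hours with UNC0638 (0.5, 1 or 2 µM) or with DMSO, the solvent. The compound inhibits G9a and GLP, methyltransferases of another lysine of histone H3 than the one PRC2 acts on. With 1 library in each of the 12 groups, none of the differences can be set against replicate spread, and p-values are not given.

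Polycomb complexes keep genes silent by marking histones. PRC2 methylates a lysine of histone H3 (H3K27) through its catalytic subunit EZH1 or EZH2, with EED and SUZ12 as obligate partners, and JARID2 helps to bring it to chromatin. PRC1 ubiquitinates histone H2A through RNF2 (RING1B) or RING1 (RING1A), paired with a PCGF protein such as BMI1. Its CBX subunits read the PRC2 mark and its PHC subunits join complexes together. In the male germ line, Polycomb complexes hold developmental and somatic genes silent and take part in the timing of germ cell differentiation.

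The members lie at separate loci. In the RefSeq annotation of GRCm38.p6, the assembly that the mm10 build corresponds to, Ezh1 is at chr11:101191115-101226463, Ezh2 at chr6:47530274-47595270, Eed at chr7:89954654-89980976 and Suz12 at chr11:79993106-80034123. Jarid2 is at chr13:44730774-44921643, Bmi1 at chr2:18677018-18686629 and Rnf2 at chr1:151469398-151500991. Ring1 is at chr17:34020792-34024680, Cbx2 at chr11:119023019-119031275 and Phc1 at chr6:122317731-122340227. Ezh2 overlaps the non-coding gene F830010H11Rik and Cbx2 overlaps Gm35829, and the source of reads in an overlap is uncertain because the library method does not mark strand; the other 8 overlap no annotated gene.

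RefSeq promoter windows (250 bases before to 50 after a start site, GRCm38.p6) were found for 9 of the 10 members, Cbx2 being the other. They are shown for members whose ratios in the GFP sort had counting intervals clear of 0 in both fractions, above 0 for Eed and Suz12 and below 0 for Ezh1 and Rnf2, though not all passed 1.5-fold. Ezh2, also above 0, is shown only around a motif match. Counting intervals clear of 0 were found for 47.6% of all genes in GFP-mid and 55.2% in GFP-high. Capitals mark a match to one of 4 spellings of the E2F motif (TTTCCCGC, TTTCGCGC, TTTGGCGC and TTTGCCGC, searched on both strands); E2F factors drive genes of the cell cycle. The first 4 lines are the 250 bases before the start site, and the last is a stretch of 30 bases, all 5′ to 3′ on the gene's strand.
Suz12, chr11:79992856-79993105, plus strand: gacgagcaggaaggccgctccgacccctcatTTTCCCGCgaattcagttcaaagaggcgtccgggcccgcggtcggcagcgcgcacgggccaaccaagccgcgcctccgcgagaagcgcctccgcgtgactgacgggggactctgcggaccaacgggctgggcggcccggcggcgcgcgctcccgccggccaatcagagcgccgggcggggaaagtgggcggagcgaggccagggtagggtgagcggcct
Eed, chr7:89980977-89981226, minus strand: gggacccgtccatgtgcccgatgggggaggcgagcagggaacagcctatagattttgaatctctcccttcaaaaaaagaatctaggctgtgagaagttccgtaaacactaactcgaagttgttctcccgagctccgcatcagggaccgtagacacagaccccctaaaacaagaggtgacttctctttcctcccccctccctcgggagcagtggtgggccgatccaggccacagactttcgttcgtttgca
Ezh1, chr11:101226464-101226713, minus strand: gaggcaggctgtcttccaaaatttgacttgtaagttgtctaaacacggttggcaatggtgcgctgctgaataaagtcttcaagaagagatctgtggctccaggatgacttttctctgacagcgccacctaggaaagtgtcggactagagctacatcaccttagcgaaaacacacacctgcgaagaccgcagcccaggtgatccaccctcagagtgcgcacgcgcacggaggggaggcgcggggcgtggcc
Rnf2, chr1:151500992-151501241, minus strand: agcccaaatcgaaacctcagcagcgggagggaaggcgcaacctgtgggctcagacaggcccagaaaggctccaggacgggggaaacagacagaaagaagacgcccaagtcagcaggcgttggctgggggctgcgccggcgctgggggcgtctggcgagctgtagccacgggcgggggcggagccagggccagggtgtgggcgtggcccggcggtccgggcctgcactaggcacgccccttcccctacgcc
Ezh2, chr6:47595009-47595038, minus strand: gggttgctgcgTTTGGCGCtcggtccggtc
The windows of Suz12 and Ezh2 were the only member windows with a match, 2 of 10, where 2.26% of all 32851 windows had one. The match in Suz12 begins 219 bases before the start site and that in Ezh2 begins 3 bases after the start site of its window, which lies inside the locus given above and not at its end. All 10 member windows (Jarid2 has 2) were rich in CpG: the observed over expected CpG ratio ran from 0.534 in Phc1 to 1.09 in Suz12, against a median of 0.384 over all windows. All 4 spellings contain CpG, so the 2 of 10 and the 2.26% are not matched for composition. A letter match is a description and not evidence of binding.

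Library totals ran from 4335210 to 12019672 expected counts. The germ cell label was checked against markers: all 19 measured germ cell genes had counts in every library, and Dazl, an RNA-binding protein of germ cells, was at 1436 to 2065 CPM. Markers of other cell types were also present. The summed level of 20 fibroblast genes was 5822 CPM in the mesenchymal-like library and 299.8 in the epithelial-like one, and 3054 CPM with DMSO against 437 to 1044 with UNC0638. It was 239 to 267 CPM in the feeder-removal series, and 116, 161 and 266 CPM from GFP-low through GFP-mid to GFP-high. The summed level of 14 myeloid genes was 1995 and 1859 CPM in the GFP-low and GFP-mid libraries, 235 in GFP-high, and 10.2 to 51.3 in the other 9, where 1 to 9 of the 14 genes had 0 counts. Sertoli and Leydig genes summed to 14.3 to 55.5 CPM, and Cyp17a1, an androgen-synthesis enzyme of Leydig cells, had 0 counts throughout. In bulk libraries, fewer cells of a type and less RNA per cell cannot be told apart. The same holds for fibroblasts and germ cells that themselves express fibroblast genes.

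Per transcript length, the PRC2 core was uneven. TPM (transcript abundance scaled to length and to the library) allows levels of different genes to be set side by side. Eed, the subunit that binds the methyl mark, had the highest TPM of the 10 members in 9 of 12 libraries and the second highest in the other 3, at 66.2 to 209 TPM. Suz12 ranked ninth in every library, at 8.02 to 30.1 TPM. Its counting interval overlapped that of Ring1 in the mesenchymal-like and GFP-low libraries, and that of Bmi1 with UNC0638 at 2 µM. Thus the TPM of Eed was 2.51 times that of Suz12 with UNC0638 at 2 µM and 26 times at day 4 on Matrigel. Jarid2 was at 43.1 to 78.2 TPM, Ezh1 at 25.7 to 81.8 and Ezh2 at 25.1 to 41.3. Among the PRC1 members, Rnf2 was at 44.4 to 113 TPM, Cbx2 at 25.2 to 65.5, Bmi1 at 26.9 to 47.7 and Phc1 at 20.7 to 37.5. Ring1 was the lowest member in every library, at 1.57 to 13.9 TPM. The order was not resolved throughout: in each library at least 1 pair of neighbours had overlapping 95% counting intervals, among them Rnf2 and Eed in the epithelial-like, mesenchymal-like and GFP-low libraries, and Jarid2 and Cbx2 in GFP-high (66.7 and 65.5 TPM).

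**Figure D1:**
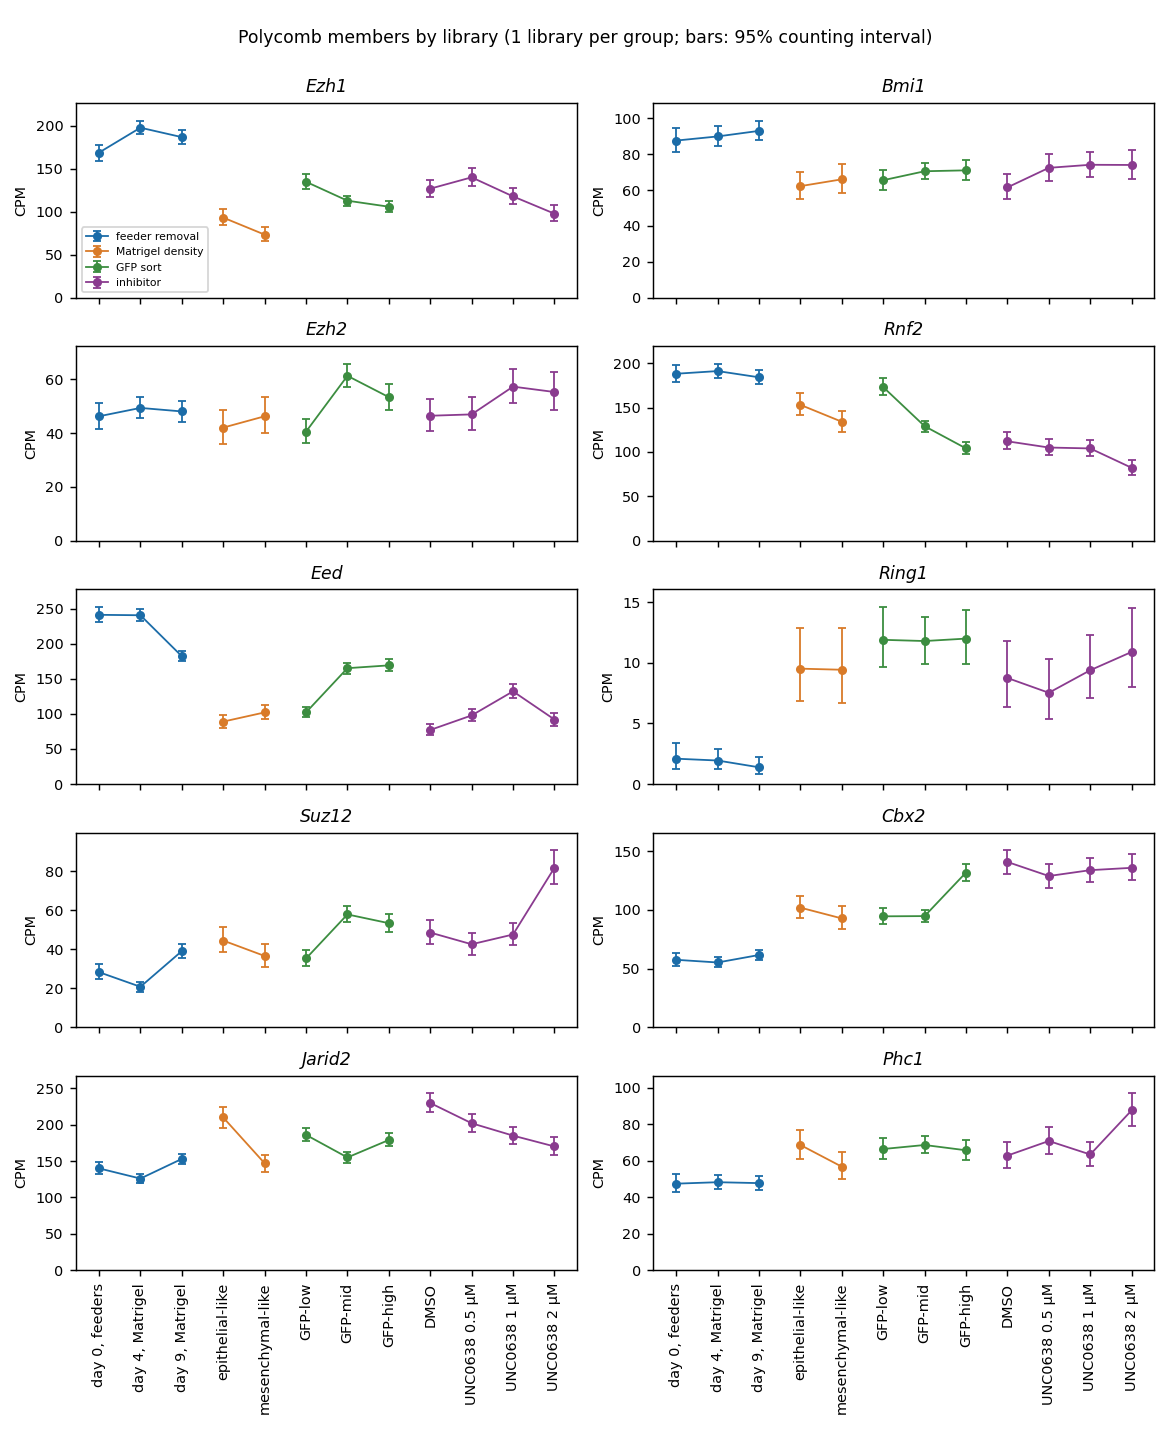
Level of each Polycomb member in each library, in CPM on a linear axis from 0, with 95% Poisson intervals (counting error only); colours mark the 4 experiments and lines join libraries of 1 experiment. Ring1 lies between 1.38 and 2.09 CPM in the feeder-removal libraries and between 7.53 and 12 CPM in the other 9, and Suz12 is highest with UNC0638 at 2 µM.

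Within experiments, no member was 2-fold apart. Against the reference library of each experiment (day 0, epithelial-like, GFP-low and DMSO), no member reached a 2-fold ratio in any of the 8 comparisons, 0 of 80 ratios, and the largest absolute log2 ratio was 0.77. Other pairs of libraries within a series were further apart for Suz12, which had a log2 ratio of 0.88 at day 9 against day 4 and a 1.92-fold range in the inhibitor series. The percentage of all tested genes past 2-fold in these comparisons was 2.31% at day 4 and 2.59% at day 9 after feeder removal, 12.7% between the Matrigel densities, 4.13% for GFP-mid and 9.66% for GFP-high against GFP-low, and 3.70%, 6.66% and 7.05% at the 3 rising doses of UNC0638. These shares depend on low genes: among the 11135 genes with a mean of 5 CPM or more, which include all 10 members, 92 genes passed in place of 331 at day 4, 153 in place of 371 at day 9 and 185 in place of 529 at 0.5 µM. At a lower bar of 1.5-fold, 6 of the 80 ratios passed, where in the same order of comparisons 10.7%, 12.4%, 26.6%, 15.9%, 25.2%, 13.6%, 18.0% and 22.0% of all genes did. Counting error does not cover all the smaller differences: the 95% counting interval, taken from the split of reads between both libraries, excluded no change for 37 of the 80 ratios. In the order of the comparisons above it did so for 3, 4, 4, 6, 6, 3, 4 and 7 of the 10 members, and for 34.2%, 40.6%, 42.1%, 47.6%, 55.2%, 24.8%, 32.1% and 38.7% of all genes. More reads give narrower intervals, and these shares are not matched for level. The mean of the members ran from 8.05 CPM for Ring1 to 174 CPM for Jarid2, where all tested genes had 1 CPM or more. These intervals compare the libraries and not the conditions.

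**Figure D2:**
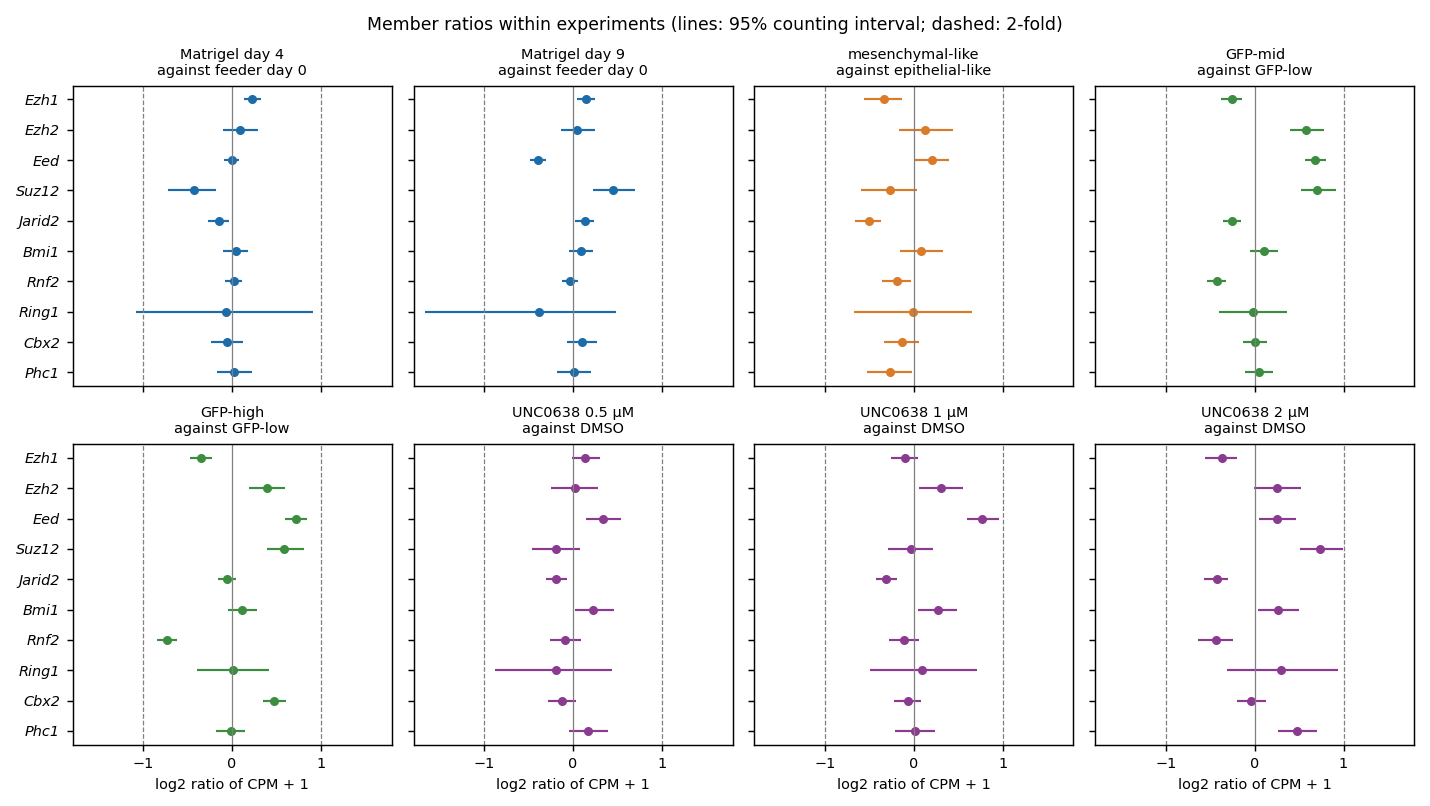
Log2 ratio of CPM + 1 of each member in the 8 comparisons within experiments, with 95% counting intervals; dashed lines mark 2-fold. No point reaches a dashed line, and the GFP comparisons and UNC0638 at 2 µM have the most intervals clear of 0 (6, 6 and 7 of 10 members).

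The feeder-removal series asked what follows when GSCs leave the feeder layer. Of the alternative methyltransferases, Ezh1 was at 169, 198 and 187 CPM at days 0, 4 and 9, slightly higher at both later times (log2 ratios 0.23, 0.13 to 0.33, and 0.15, 0.05 to 0.25). Ezh2 was at 46.2, 49.3 and 48 CPM, with intervals that included no change. Eed was at 241, 240.4 and 182 CPM, so that day 9 alone was lower (log2 ratio -0.40 against day 0, 95% counting interval -0.49 to -0.31). Suz12 did not follow Eed. It was at 28.2, 20.7 and 39 CPM, lowest at day 4 and highest at day 9 (log2 ratios -0.43, -0.72 to -0.18, and 0.45, 0.23 to 0.70). Between days 4 and 9 its log2 ratio was 0.88 (0.69 to 1.14). Jarid2 was at 140.0, 126 and 153 CPM.

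The PRC1 members hardly differed between the 3 days. Rnf2 was at 188, 191 and 184 CPM, Bmi1 at 87.6, 89.9 and 93, Cbx2 at 57.5, 55.2 and 61.6, and Phc1 at 47.5, 48.3 and 47.8. Their counting intervals against day 0 all included no change, and between days 4 and 9 that of Cbx2 did not (0.16, 0.01 to 0.31). Ring1 had 16, 23 and 17 counts, which resolves little: its log2 ratio at day 9 was -0.38 with an interval of -1.67 to 0.48. No member was 1.5-fold apart from day 0 at either time, where 10.7% and 12.4% of all genes were. Between days 4 and 9, Suz12 alone was past 1.5-fold, where 9.96% of all genes were. The median log2 ratio of the 10 members was 0.01 at day 4 and 0.07 at day 9, against 0.01 over all genes at both times. The day 4 and day 9 ratios share the day 0 library.

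The density experiment set the mesenchymal-like culture against the epithelial-like one. Jarid2 had the largest difference, at 209.9 CPM in the epithelial-like and 147 CPM in the mesenchymal-like library (log2 ratio -0.51, -0.67 to -0.37). Ezh1 was at 93.3 and 73.5 CPM (-0.34, -0.56 to -0.13), while Ezh2 was at 42 and 46.2 CPM (0.13, -0.17 to 0.44). Eed was at 88.9 and 102 CPM, and Suz12 at 44.4 and 36.5 CPM, with intervals that reached 0. Of the PRC1 members, Rnf2 was at 153 and 134 CPM (-0.19, -0.36 to -0.03) and Phc1 at 68.7 and 56.8 CPM (-0.27, -0.53 to -0.02). Bmi1, Ring1 and Cbx2 had intervals that included no change.

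A ratio below 0 was found for 7 of 10 members, 4 of them with intervals clear of 0, and for 53.2% of all genes. The members had a median of -0.17 against -0.04 over all genes. No member reached 1.5-fold, where 26.6% of all genes did. The mesenchymal-like library also had the higher fibroblast sum given above, and germ cell genes had a median log2 ratio of -0.27. With ratios centred on those germ cell genes, Rnf2, Ring1 and Cbx2 changed sign to 0.08, 0.25 and 0.13, while Jarid2 stayed at -0.25; the median was then 0.10 for the members and 0.23 for all genes. The part of the fibroblast transcripts in these values was not tested.

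The GFP sort asked how fractions with different Oct4 reporter activity differ. Here Eed, Suz12 and Ezh2 had log2 ratios above 0 and Ezh1 and Rnf2 below 0 in both fractions, with counting intervals clear of 0. Only some passed 1.5-fold, as given below. Of all genes, 47.6% in GFP-mid and 55.2% in GFP-high had intervals clear of 0. The share of all genes with such intervals in both fractions was not computed. From GFP-low through GFP-mid to GFP-high, Ezh2 was at 40.5, 61.2 and 53.3 CPM. The log2 ratio to GFP-low was 0.58 (0.40 to 0.78) for GFP-mid and 0.39 (0.19 to 0.60) for GFP-high. Eed was at 102, 165 and 169 CPM (0.68, 0.57 to 0.80, and 0.72, 0.60 to 0.85). Suz12 was at 35.2, 57.8 and 53.3 CPM (0.70, 0.52 to 0.92, and 0.58, 0.39 to 0.81). Between GFP-mid and GFP-high, the intervals of Eed and Suz12 included no change, and Ezh2 was lower in GFP-high (-0.20, -0.36 to -0.03).

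Ezh1 was at 135, 113 and 106 CPM, lowest in GFP-high (log2 ratio -0.35, -0.48 to -0.23). Jarid2 was at 186, 155 and 179 CPM, so only GFP-mid was low. Rnf2, the main PRC1 ligase, was graded downwards, at 173, 129 and 104 CPM (-0.43, -0.54 to -0.33, for GFP-mid and -0.73, -0.85 to -0.62, for GFP-high). Cbx2, the CBX subunit known for its part in testis development, was at 94.6, 94.8 and 132 CPM, so it differed in GFP-high alone (0.47, 0.35 to 0.61). Bmi1 was at 65.5, 70.5 and 71 CPM, Phc1 at 66.5, 68.7 and 65.8, and Ring1 at 11.9, 11.8 and 12. These last 3 had intervals that included no change.

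Past 1.5-fold were Eed and Suz12 for GFP-mid, 2 of 10 members where 15.9% of all genes passed, and Eed and Rnf2 for GFP-high, 2 of 10 where 25.2% passed. Both shares are near the background. Ezh2 in GFP-mid and Suz12 in GFP-high (0.58 each) fell just short of the bar. Levels of 5 of the 10 members (Ezh1, Eed, Bmi1, Rnf2 and Cbx2) ran in the order of the fractions, as they did for 51.2% of all genes. The GFP-mid and GFP-high ratios share the GFP-low library.

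Values that moved with these fractions were as follows. The myeloid sum was close in GFP-low and GFP-mid (1995 and 1859 CPM), where Ezh2, Eed and Suz12 differed, and it was 235 CPM in GFP-high. The fibroblast sum was graded upwards (116, 161 and 266 CPM), and 9 of its 19 tested genes were 2-fold higher in GFP-high than in GFP-low, where 7.13% of all genes were, among them Col1a1, at 22, 51.1 and 105 CPM; 2 or 3 of the 20 genes had 0 counts in each fraction. The sum of 20 proliferation genes, a list of S phase and mitosis genes, was 6728, 5389.7 and 5309 CPM, and 19 of 20 had a log2 ratio below 0 in GFP-high (median -0.36), where 50.5% of all genes did. The exception was Mki67, a marker of cycling cells, at 67.1, 103 and 129.8 CPM (0.94, 0.80 to 1.1, in GFP-high). The part of any of these in the member ratios was not tested.

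The question of the inhibitor series was the response to UNC0638. Jarid2 was the member most plainly graded with dose, at 229.8 CPM with DMSO and 202, 185 and 170.1 CPM at 0.5, 1 and 2 µM. Its log2 ratios were -0.19 (-0.31 to -0.07), -0.31 (-0.43 to -0.19) and -0.43 (-0.57 to -0.30). Ezh1 was at 127, 140.2, 118 and 97.9 CPM, lower at 2 µM only (-0.37, -0.56 to -0.20). Ezh2 was at 46.4, 46.9, 57.2 and 55.2 CPM (0.30, 0.06 to 0.55, at 1 µM and 0.25, -0.01 to 0.52, at 2 µM).

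Eed and Suz12 peaked at different doses. Eed was at 77, 97.7, 132 and 91.9 CPM, with log2 ratios of 0.34 (0.15 to 0.54), 0.77 (0.60 to 0.96) and 0.25 (0.05 to 0.46). The ratio at 1 µM was the largest of the 80, and 2 µM was lower than 1 µM (-0.52, -0.70 to -0.35). Suz12 was at 48.5, 42.5, 47.5 and 81.7 CPM, so the 2 µM library alone stood apart (0.74, 0.51 to 0.99). These obligate partners had no common dose pattern in these libraries.

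Of the PRC1 members, Rnf2 was at 112, 105, 104 and 82.2 CPM (-0.44, -0.64 to -0.25, at 2 µM). Bmi1 was slightly higher in all 3 treated libraries, at 61.5, 72.4, 74.1 and 74 CPM (0.23 to 0.27). At 0.5 µM its interval was 0.02 to 0.46, and centring on germ cell genes moved the median of all genes at that dose to -0.18. Phc1 was at 62.9, 70.9, 63.5 and 87.7 CPM (0.47, 0.26 to 0.70, at 2 µM). Cbx2 stayed level, at 141, 129, 134 and 136 CPM. Ring1 was at 8.75, 7.53, 9.39 and 10.9 CPM, differences that its 39 to 54 counts cannot resolve.

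The 1.5-fold bar was passed by 0 of 10 members at 0.5 µM, by Eed alone at 1 µM and by Suz12 alone at 2 µM. It was passed by 13.6%, 18.0% and 22.0% of all genes. Jarid2 and Rnf2 were in dose order, 2 of 10 members, where 14.5% of all genes were. The median log2 ratio of the members was -0.03, -0.01 and 0.25, against 0.00 over all genes at each dose. The ratios share the DMSO library, whose fibroblast sum (3054 CPM) exceeded those of the treated libraries (1044, 437 and 546 CPM). Proliferation genes had medians of -0.05, -0.10 and -0.34, with Mki67 at 0.29 at 2 µM. The part of either in the member ratios was not tested.

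The balance between EZH1 and EZH2 transcripts does not depend on how libraries are scaled, since both are read from 1 library. EZH2 is the form typical of dividing cells and EZH1 that of resting ones. The TPM of Ezh1 over that of Ezh2 was 2.25, 2.47 and 2.4 at days 0, 4 and 9. It was 1.37 (1.15 to 1.64) in the epithelial-like and 0.979 (0.815 to 1.18) in the mesenchymal-like library. It was 2.05 (1.81 to 2.33) in GFP-low, 1.13 (1.04 to 1.24) in GFP-mid and 1.22 (1.1 to 1.36) in GFP-high. With DMSO it was 1.69 (1.45 to 1.97), and with UNC0638 it was 1.84 (1.59 to 2.13), 1.27 (1.11 to 1.46) and 1.09 (0.929 to 1.29). Thus Ezh1 was the more abundant transcript in 11 of 12 libraries, though the intervals of the 2 µM and mesenchymal-like libraries included equal TPM. The intervals of GFP-low and GFP-mid did not overlap, nor did those of DMSO and 2 µM, while those of the 3 feeder-removal libraries did.

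The ligase pair was one-sided. Rnf2 had 80.3% to 98.6% of the summed TPM of Rnf2 and Ring1. The ratio Rnf2 to Ring1 was 48.6, 53 and 72 in the feeder-removal series and 4.07 to 8.75 in the other 9 libraries. In the GFP sort it was 7.81 (6.35 to 9.71), 5.89 (4.97 to 7.01) and 4.65 (3.83 to 5.70), and with UNC0638 at 2 µM it was 4.07 (3 to 5.64) against 6.91 (5.08 to 9.63) with DMSO.

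**Figure D3:**
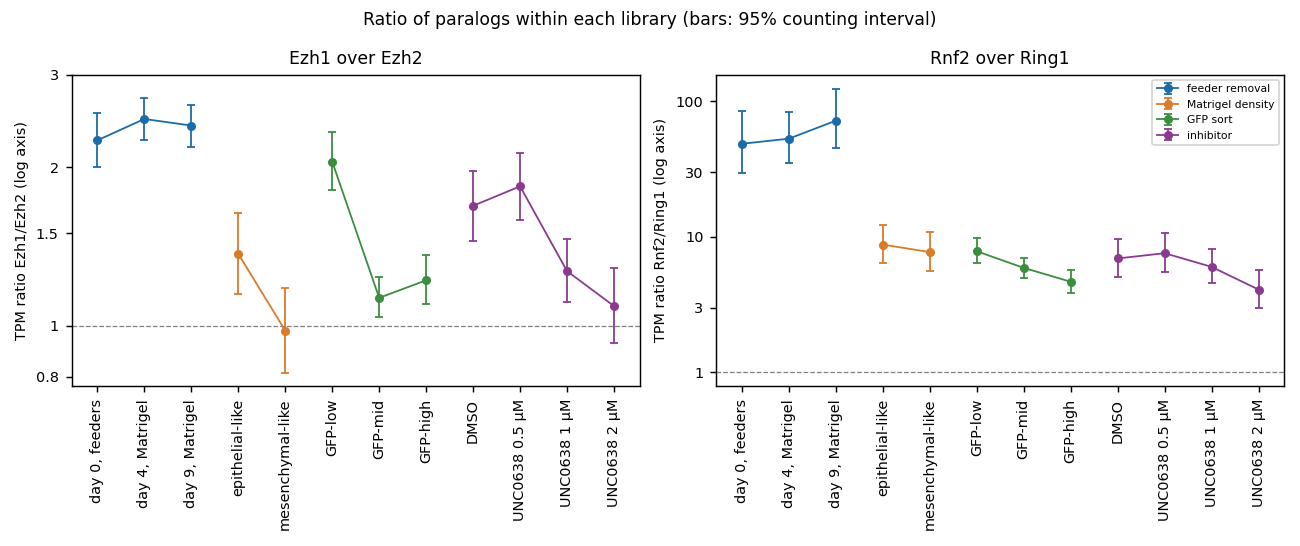
TPM ratio of Ezh1 to Ezh2 (left) and of Rnf2 to Ring1 (right) in each library, on log axes, with 95% counting intervals; the dashed line marks equal TPM. The Ezh ratio is 2.05 in GFP-low and 1.13 in GFP-mid, and 1.69 with DMSO and 1.09 with UNC0638 at 2 µM.

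The other PRC1 families show what surrounds the members. Among the 6 PCGF genes, whose products define the variants of PRC1, Pcgf5 led in all 12 libraries with 35.1% to 54.7% of the summed TPM, and Bmi1 (PCGF4) had 8.94% to 12.3%. Pcgf6, a PCGF of variant PRC1, had 15.6% to 24.5%. Pcgf5 was at 121, 177 and 217 TPM from GFP-low to GFP-high and at 88.5, 109.8, 153 and 129 TPM over DMSO and the 3 doses. Among 4 CBX genes, Cbx2 led in 9 libraries and Cbx8 in the 3 feeder-removal libraries, where Cbx8 was at 34.9 to 36.6 TPM and Cbx2 at 25.2 to 30.3. Phc1 led the 3 PHC genes in 10 libraries, and Phc2 in 2.

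**Figure D4:**
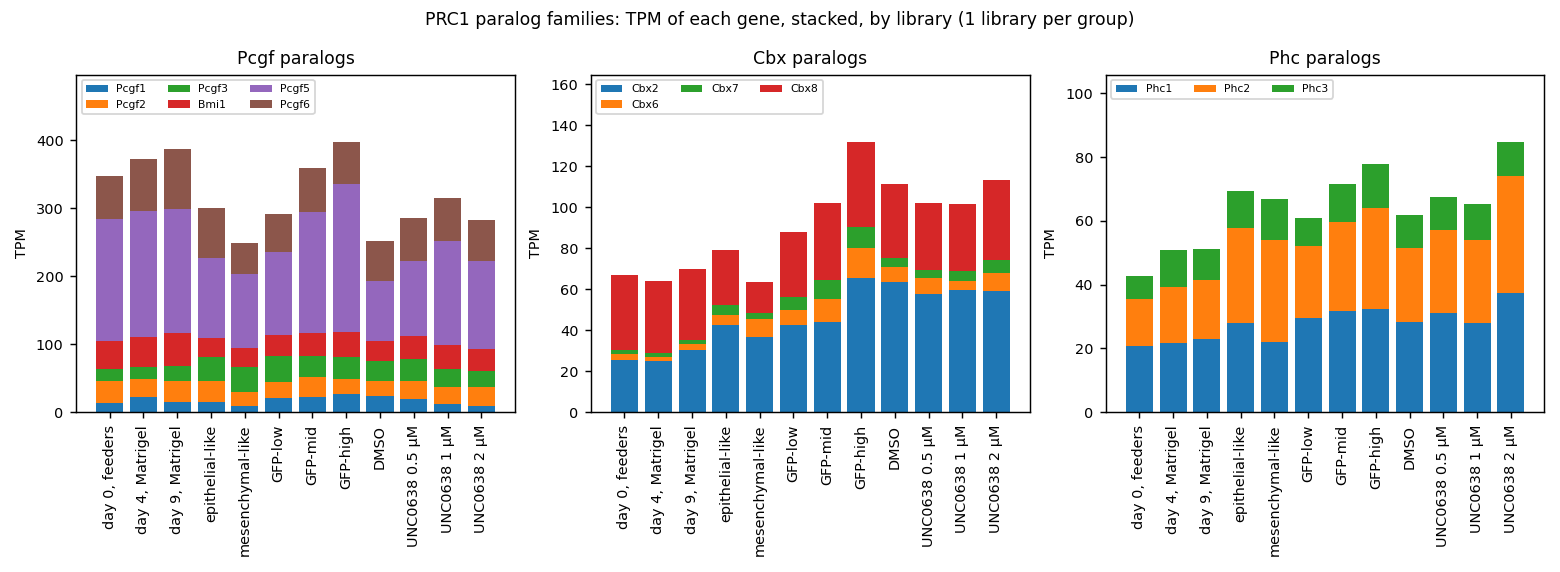
Stacked TPM of the PCGF, CBX (4 genes) and PHC paralogs in each library, 1 library per bar. Pcgf5 is the largest segment of every PCGF bar, at 88.5 TPM with DMSO and 217 TPM in GFP-high, and Bmi1 is a small one.

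Other genes of the pathway were taken from lists. Of 9 further PRC2 genes, 8 were in the tables and passed the filter. Epop, which links PRC2 to elongin and is listed in the tables under its older symbol, had the largest difference: 3.73, 16.2 and 29.9 CPM over the rising GFP fractions, 1.86 (1.56 to 2.72) and 2.71 (2.46 to 3.60) as log2 ratios. With DMSO it was at 4.18 CPM, and with UNC0638 at 5.79, 20.9 and 9.52 CPM. It passed 2-fold at 1 µM (2.08, 1.64 to 3.06) and, with 41 counts, at 2 µM (1.02), a gene named there after its value was seen. Phf19, a Polycomb-like reader, was lower in GFP-high, at 9.33 and 3.93 CPM (-1.07, -1.85 to -0.66). The abundant subunits Rbbp4, Rbbp7 and Mtf2 stayed within 1.5-fold in all 8 comparisons. In GFP-high against GFP-low, 1 of 8 was 2-fold higher and 1 lower, where 7.13% and 2.54% of all genes were.

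The 22 further PRC1 genes described here all passed the filter. In GFP-high against GFP-low, 2 were 2-fold higher and 0 lower, where 7.13% and 2.54% of all genes were. The 2 were the corepressor Bcor, from 12.2 to 28.8 CPM (1.18, 0.90 to 1.59), and E2f6, a repressor of variant PRC1, from 43 to 95.4 CPM (1.13, 0.97 to 1.33). Yaf2 reached 0.93. The median of the 22 was 0.30 against -0.01 over all genes. Of the 22, 15 were above 0, where 50.5% of all genes were below 0. With UNC0638 at 2 µM, 0 were 2-fold higher and 1 was lower, Pcgf1, from 10.7 to 4.18 CPM (-1.18, -2.22 to -0.57), where 3.59% of all genes were higher and 3.46% lower. None of the 22 passed 2-fold at days 4 and 9, between the densities, in GFP-mid or at 0.5 and 1 µM, where 2.31%, 2.59%, 12.7%, 4.13%, 3.70% and 6.66% of all genes did.

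Of the 9 enzymes that oppose Polycomb (H3K27 demethylases, H2A deubiquitinase subunits and trithorax methyltransferases), all passed the filter. Kmt2b, a trithorax methyltransferase, was at 28.2, 63.4 and 67.3 CPM over the rising GFP fractions (1.14, 0.95 to 1.39, and 1.22, 1.03 to 1.48). It was the only one of the 9 past 2-fold within an experiment, where 4.13% of all genes were in GFP-mid and 9.66% in GFP-high. Kmt2c and Kmt2a had log2 ratios of 0.84 and 0.80 in GFP-high, and Asxl1, a deubiquitinase cofactor, 0.67. With those 4, 4 of 9 were at least 1.5-fold higher in GFP-high and 0 lower, where 16.8% and 8.42% of all genes were. Kmt2b was also at 76.1 CPM with UNC0638 at 2 µM against 44.4 with DMSO (0.77, 0.53 to 1.03).

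**Figure D5:**
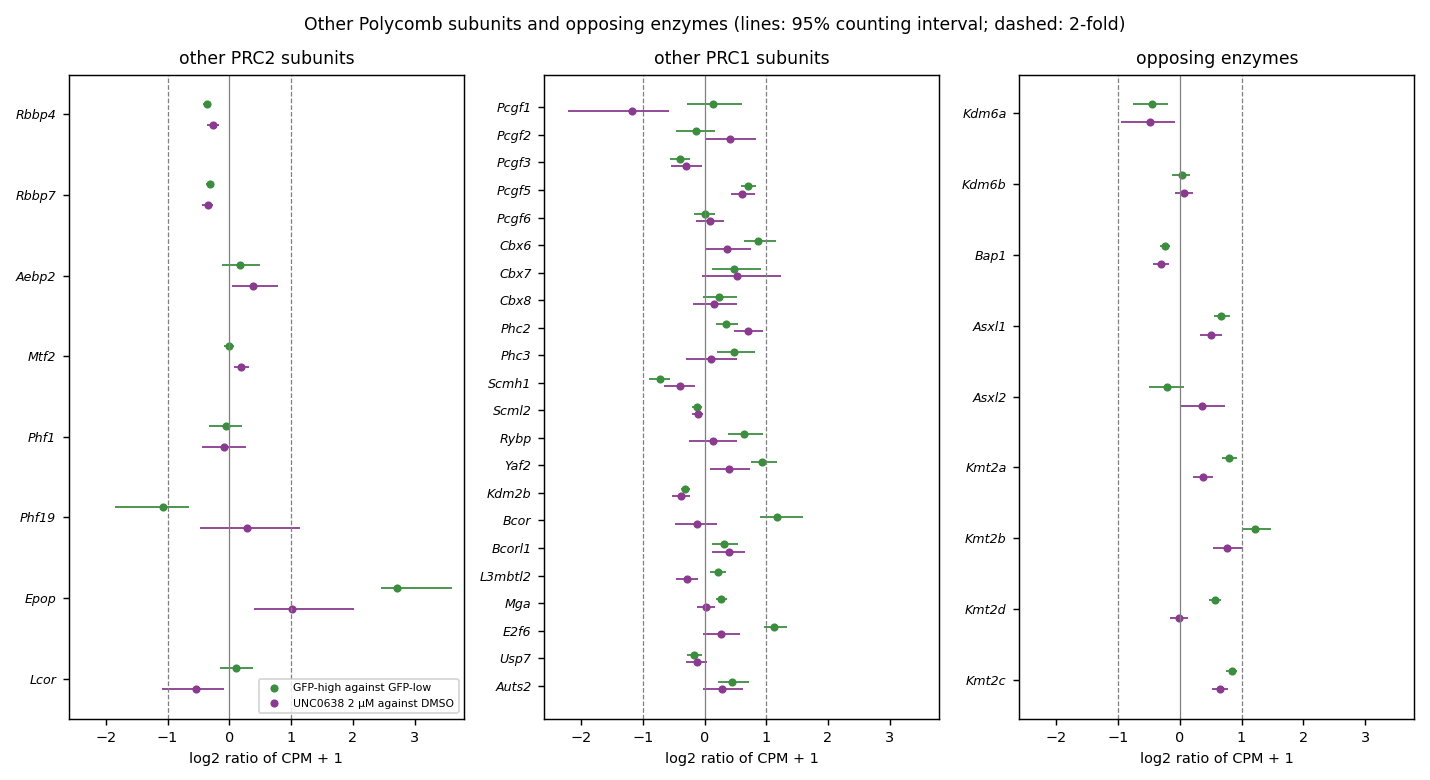
Log2 ratio of CPM + 1 for other PRC2 subunits, other PRC1 subunits and opposing enzymes, for GFP-high against GFP-low (green) and UNC0638 at 2 µM against DMSO (purple), with 95% counting intervals; dashed lines mark 2-fold. Epop lies furthest right, at 2.71 in GFP-high, and it passes 2-fold in both comparisons.

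The largest differences of the members lay between experiments. The DMSO library and the day 0 library both came from feeder cultures without inhibitor. Between them, 3 of 10 members were past 2-fold, where 19.4% of all genes were. Eed was at 77 CPM with DMSO and 241 CPM at day 0 (log2 ratio -1.63, -1.81 to -1.49). Cbx2 was at 141 and 57.5 CPM (1.28, 1.12 to 1.46), and Ring1 at 8.75 and 2.09 CPM (1.66, 1.21 to 2.99), the latter from 44 and 16 counts. Rnf2 (-0.75), Jarid2 (0.71) and Suz12 (0.76) passed 1.5-fold, which makes 6 of 10 where 41.7% of all genes did. The counting interval excluded no change for 9 of 10, where it did for 61.3% of all genes, a share not matched for level. Ezh2 was the same within counting error, at 46.4 and 46.2 CPM.

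Over all 12 libraries Ezh2 and Bmi1 varied least, by 1.51-fold between lowest and highest CPM. Ring1 varied 8.71-fold, Suz12 3.95-fold and Eed 3.13-fold, while the largest range within 1 experiment was 1.52-fold for Ring1, 1.92-fold for Suz12 and 1.71-fold for Eed. Experiment, culture and any batch cannot be told apart, and the fibroblast sum was 3054 CPM with DMSO and 267 CPM at day 0.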

How the data were processed

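RNA was measured in 12 libraries prepared by a modified Smart-seq2 method, per the labels' protocols. The submitters' processing notes list Trim Galore, RSEM and mm10; the aligner and annotation release are not given in the sources used here. The deposited expected counts are RSEM estimated counts per gene, without normalization by the authors. Per the file headers, the other deposited columns are TPM, which RSEM scales to transcript length and library. FPKM, also deposited, was not used.

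Expected counts were rounded. CPM used TMM factors over the 12 libraries (0.911 to 1.07; edgeR 4.0.16, R 4.3.3). Genes whose mean reached 1 CPM were compared. A comparison took log2 of CPM + 1 in both libraries and their difference, called at 2-fold; the pseudocount of 1 understates changes of low genes. Intervals are 95%: Clopper-Pearson on the split of reads, without pseudocount, and exact Poisson for levels. PCR copies were not told apart by molecular identifiers, so intervals cover counting error only, and 3 counts corresponded to 0.238 to 0.725 CPM. How RSEM shared reads is unchecked: 1 of the members' 120 estimates had a remainder other than exactly 0. The design calls for no test, since each group has 1 library. Steps were tested on simulated data. The members and gene lists were chosen with earlier results of these data known. All members are named; genes of other lists may be named past 1.5-fold with at least 50 counts, at most 4 per list and comparison; other genes, such as the paralogs, were named after their values were seen. Older symbols were matched by synonym, and the row Mll2 was read as Kmt2d because the row Wbp7 carries the transcript of Kmt2b. Alternatives were DESeq2 1.42.0 size factors, total counts, TPM, centring on germ cell genes, pseudocounts of 0.5 and 2, no filter and a filter at 5 CPM. Plots used matplotlib 3.10.9, and other steps Python 3.11.15 with scipy 1.17.1, pandas 2.3.3 and numpy 2.4.6. The 4 ATAC-seq libraries were not analysed here, and 1 gene of the lists is not reported here.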

Additional observations from a re-analysis of the deposited data

How the results depend on the processing

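In the 8 comparisons within experiments 0 of 10 members passed 2-fold under each of the 8 alternatives, and 3 of 10 did so for DMSO against day 0 under each. No member past 2-fold changed sign. Ratios nearer 0 changed sign in 4 of 90 cases with total counts, 5 with TPM and 10 with centring on germ cell genes, which moved ratios by up to 0.27. None changed sign under the other 5 alternatives. Of the 90 ratios, 8 with TPM and 21 with centring fell outside their own counting interval. An interval clear of 0 therefore does not cover the choice of scaling. Centring moved the median of all genes from -0.04 to 0.23 between the densities and from 0.00 to -0.18 at 0.5 µM, and the TPM moved it from 0.01 to 0.13 at day 9.

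The count of all genes past 2-fold depended on low genes. At day 4 it was 331, and 625 with a pseudocount of 0.5, 112 with 2 and 92 with a filter at 5 CPM. At day 9 it was 371, and 646, 146 and 153. At 0.5 µM it was 529, and 821, 251 and 185. For GFP-mid it was 591, and 377 both with a pseudocount of 2 and with the filter. At 1 µM it was 952, and 596 and 465, and at 2 µM 1008, and 585 and 460. The filter gave 987 in place of 1810 between the densities and 872 in place of 1382 for GFP-high. The cause was not tested beyond the fewer genes that the filter leaves. No paired analysis was possible because each RNA group has 1 library. Depth limits Ring1 most, with 16 to 148 counts.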

Other observations

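Of 52 Hox and lineage genes widely known as Polycomb targets, 21 passed the filter on low values, or 40.4%, where 52.7% of all genes in the tables did. Their median log2 ratio was between -0.30 and 0.09 in the 8 comparisons within experiments. Cdkn2b, an inhibitor of cyclin-dependent kinases, was at 10.2 CPM in the epithelial-like and 96.7 CPM in the mesenchymal-like library (log2 ratio 3.12, counting interval 2.79 to 3.73), and its neighbour Cdkn2a, named after its value was seen since it had 46 counts at most, had 1.87. These were the 2 of 21 past 2-fold there, where 12.7% of all genes were, and the fibroblast sum moved with them (299.8 and 5822 CPM). T (Brachyury), a mesoderm factor, was lower in GFP-high than in GFP-low, at 2.98 and 9.82 CPM (-1.44, -2.40 to -1.08). With UNC0638 at 2 µM, Hoxb2 was at 25.5 CPM against 52.1 with DMSO (interval -1.36 to -0.70), Hoxb6 at 65.5 against 106 (-0.69) and Hoxb9 at 7.2 against 13.9 (-0.86). In all, 8 of 21 were at least 1.5-fold apart at that dose, where 22.0% of all genes were; 7 of the 21 were lower, where 10.0% of all genes were, and the fibroblast sum was 546 CPM against 3054. The part of fibroblast transcripts in these values was not tested.

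With each experiment centred on its own mean, the genes whose log2 CPM followed Ezh1 most closely over the 12 libraries, among 9599 genes whose mean reached 10 CPM, were Blmh (Pearson r = 0.98), Kdm2b (listed as Fbxl10), Rrn3 and Mcm2 (0.97 each) and Cdc45l (0.96). Kdm2b is a PRC1 subunit of the lists above. For Ezh2 they were Trim30 (0.97), Gadd45a and Rc3h1 (0.94 each), and Slc27a2 and Faf1 (0.93 each). The median r over all those genes was 0.06 for Ezh1 and -0.07 for Ezh2. These are descriptions over libraries that share experiments and controls. Ezh1 and Ezh2 themselves had an r of -0.64.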
